A study of Mus musculus with 10 samples.

Results

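The nuclear-encoded subunits of oxidative phosphorylation were taken from the gene count table of the series as every protein-coding gene outside the mitochondrial chromosome whose symbol begins with Nduf followed by a, b, c, s or v and a number, is Sdha, Sdhb, Sdhc or Sdhd, or begins with Uqcr, Cox4 to Cox8 or Atp5. This rule found 85 of the 54532 genes in the table, of which 22046 are protein-coding. By the complex they belong to, 35 are subunits of complex I, 4 of complex II, 8 of complex III, 20 of complex IV and 18 of complex V. Ndufa4 and Ndufa4l2 were counted with complex IV, where the Ndufa4 protein is now placed, and the other genes follow their names. The genes Ndufab1 and Cyc1 and the assembly factors fall outside the rule. The rule reads names alone, but the set was selected on its lower values in FTY720 than in placebo mice, seen in an earlier look at these data, so its values in that comparison, the counts past a p included, are given as a description and support nothing.

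The series holds RNA-seq of brain from 10 Slc20a2 homozygous knockout (HO) mice, which lack a phosphate transporter and develop brain calcification. Of these, 6 received FTY720 and 4 received DMSO alone as placebo. FTY720 is a sphingosine-1-phosphate receptor modulator that keeps lymphocytes in lymph nodes. All mice were injected 3 times a week for 12 weeks from 1.5 months of age, with 0.5 mg/kg FTY720 in the treated group, and all carry the same tm1a allele, so no wild-type brain enters any comparison here. Each mouse name holds a digit, 1 or 3, whose meaning the labels do not give. The digit is 1 in the FTY720 mice F1-622, F1-624 and F1-918 and in the placebo mouse P1-623, and 3 in the FTY720 mice F3-609, F3-612 and F3-908 and in the placebo mice P3-612, P3-904 and P3-907. The libraries held 14772745 to 18303981 counts per mouse, and no pair agreed within sampling noise. Slc20a2 itself was read at 6.31 to 9.43 CPM (counts scaled to library size) in the digit 1 mice and at 11.5 to 17.0 CPM in the digit 3 mice. Without a wild-type sample these values do not check the genotype. Markers of cerebellar granule cells separated the digits: Gabra6 had 1 to 4 counts in each digit 1 mouse and 2189 to 2882 in each digit 3 mouse. Mice whose number begins with 6 expressed the Y-linked gene Ddx3y and those whose number begins with 9 expressed Xist.

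Oxidative phosphorylation runs in the inner mitochondrial membrane. Complexes I and II pass electrons from NADH and succinate to ubiquinone, complex III passes them on to cytochrome c, complex IV passes them to oxygen, and complex V, the ATP synthase, makes ATP from the proton gradient that complexes I, III and IV build. Most subunits are encoded in the nucleus and imported, while a small set in the membrane core of complexes I, III, IV and V is encoded by mitochondrial DNA. Neurons depend heavily on this pathway for their ion pumps. Many nuclear subunit promoters carry sites for NRF1, a transcription factor known for driving mitochondrial genes.

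The promoters are shown because the members shared a pattern across mice, described further on. RefSeq windows of 250 bases before to 50 bases after the start site (GRCm38.p6) matched 68 of the members by symbol. The NRF1 motif, GCGC followed by any base and then TGCGC, searched on both strands, stood in a window of 17 of these 68 genes (25%), against 1254 of 17491 protein-coding genes (7.17%). A YY1-type motif of 11 bases around ATGGCGG, searched likewise, stood in 4 of the 68 (5.88%), the complex I genes Ndufa9, Ndufs4, Ndufs6 and Ndufs7, against 185 of the 17491 (1.06%). The match is a description of the letters and not of binding. The following lines give the 80-base stretches with an NRF1 match that overlap no gene of the count table, 5′ to 3′ on the strand of the gene, with each match in capitals. Ndufb4 and Ndufs5 encode accessory subunits of complex I, Cox6a1 a regulatory subunit of complex IV and Atp5h a subunit of the peripheral stalk of complex V.
Ndufb4, chr16:37654515-37654594, minus strand: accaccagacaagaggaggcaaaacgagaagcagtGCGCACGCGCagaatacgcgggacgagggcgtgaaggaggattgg
Ndufs5, chr4:123718240-123718319, minus strand: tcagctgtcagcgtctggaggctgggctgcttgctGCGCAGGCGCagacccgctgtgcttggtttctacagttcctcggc
Cox6a1, chr5:115349050-115349129, minus strand: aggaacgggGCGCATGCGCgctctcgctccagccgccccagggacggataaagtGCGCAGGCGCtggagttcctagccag
Atp5h, chr11:115420016-115420095, minus strand: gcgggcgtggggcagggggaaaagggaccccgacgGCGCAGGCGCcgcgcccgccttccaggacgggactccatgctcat
In these stretches Cox6a1 has a pair of matches and the others 1 each, while the whole window of Ndufb4 holds 3.

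To compare levels between genes, the deposited FPKM values, which are scaled by gene length, were used. Of the 85 genes, 74 had a mean of at least 10 FPKM over the 10 mice and 11 lay below it. The median over genes was 48.1 FPKM in complex I, 61.5 in complex II, 72.1 in complex III, 55.8 in complex IV and 54.1 in complex V. The highest levels belonged to small subunits of complex IV and to the catalytic subunits of complex V. Cox8a, a small structural subunit of complex IV, stood at 409 FPKM ± 166 (SD, n = 10), and Cox6a1 at 377 ± 137. Cox4i1, which carries the regulation of complex IV by ATP, stood at 301 ± 95.4. Atp5a1 and Atp5b, the α and β subunits that form the catalytic head of the ATP synthase, stood at 313 ± 37.6 and 275 ± 35. Neighbours in the order of these 5 genes differed by less than the larger SD of the pair. In the same enzyme, the central stalk subunits were lower, with 110 ± 18.6 FPKM for Atp5c1 (γ), 101 ± 30.3 for Atp5d (δ) and 53.3 ± 20.8 for Atp5e (ε). In complex II, the flavoprotein Sdha (102 ± 9.51 FPKM) was above the iron-sulfur subunit Sdhb (59.2 ± 13.6) and the membrane anchors Sdhd (63.7 ± 12) and Sdhc (26.1 ± 3.90).

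Several complex IV subunits exist as isoforms of which the muscle, testis or hypoxia form is scarce in brain, and the FPKM values followed that division in every mouse. The common form exceeded its partner by at least 57.3 times in each mouse for Cox4i1 against Cox4i2, 40.9 times for Cox6a1 against Cox6a2, 74.0 times for Cox6b1 against Cox6b2, 31.4 times for Cox7a2 against Cox7a1 and 40.5 times for Ndufa4 against Ndufa4l2. Cox8b had 2 to 18 counts per mouse and Cox7b2 had 1 to 10. Cox8c had 0 counts in every mouse, which allows up to 3 counts, or 0.164 to 0.203 CPM, in a library and covers counting error only. The other gene with 0 counts was the shorter of the 2 rows named Atp5o. In complex V, the genes Atp5g1, Atp5g2 and Atp5g3 encode the same mature c-ring protein. Atp5g3 was the most abundant at 103 FPKM ± 21.3 (SD, n = 10), and exceeded Atp5g2 by 2.50 to 3.20 times and Atp5g1 by 4.93 to 6.04 times in FPKM. In CPM, which is not scaled by length, Atp5g1 exceeded Atp5g2 in every mouse, with 120 against 84.6 in F1-622 and 116 against 77.8 in P1-623. The order of Atp5g2 and Atp5g1 thus depends on the gene lengths used.

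**Figure D1:**
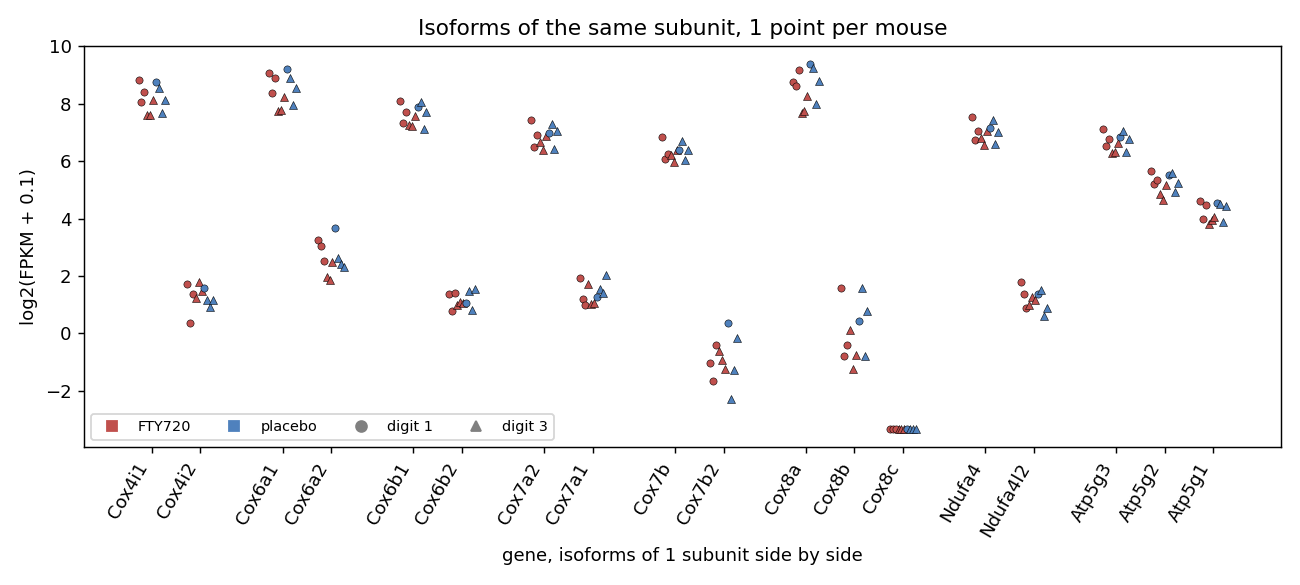
Deposited FPKM as log2(FPKM + 0.1) for isoforms of the same subunit, with 1 point per mouse, coloured by treatment and shaped by the digit in the mouse name. The common and the scarce forms do not overlap for any complex IV subunit, Cox8c lies at 0 FPKM in all 10 mice, and Atp5g3, Atp5g2 and Atp5g1 keep their order in FPKM.

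Across mice the subunit genes of all complexes varied together, and the mice of the same group differed widely. The 85 genes held from 0.81% to 1.31% of a library's counts. On the scale of CPM after TMM scaling, they summed to 13712 CPM in F1-622, 11049 in F1-918, 10084 in F3-908, 9440 in F1-624, 8075 in F3-609 and 8049 in F3-612. In the placebo mice they summed to 12949 CPM in P3-612, 12741 in P1-623, 10596 in P3-907 and 8053 in P3-904. The lowest placebo mouse thus lay beside the lowest FTY720 mice, and the highest FTY720 mouse lay above the placebo mice. Of 81 genes that passed the filter on low counts, 68 had their highest FTY720 value in F1-622, and 76 had their lowest placebo value in P3-904. P3-612 exceeded P3-904, which has the same treatment and digit but another leading number, in 80 of the 81 genes, with a median ratio of 1.73. F1-622 exceeded F1-624 in 81 of 81, with a median ratio of 1.54. Among the genes with a small spread were Uqcrc2, a core subunit of complex III with 61.5 FPKM ± 3.23 (SD, n = 10), Atp5s, a coupling factor gene, with 9.74 ± 0.854, and Ndufs1, the largest iron-sulfur subunit of complex I, with 19.1 ± 1.71.

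**Figure D2:**
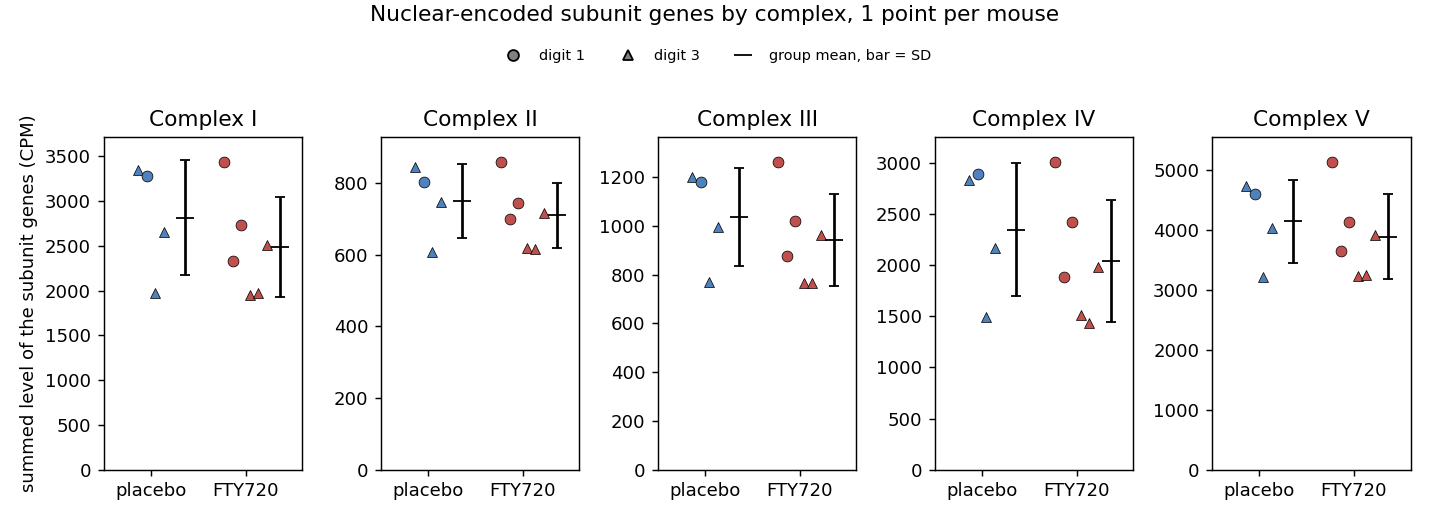
Summed CPM of the subunit genes of each complex, with 1 point per mouse, circles for digit 1 and triangles for digit 3, beside the group mean with its SD (4 placebo and 6 FTY720 mice). In each complex the placebo and FTY720 ranges overlap, and P3-904, F3-609 and F3-612 are the lowest mice.

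**Figure D3:**
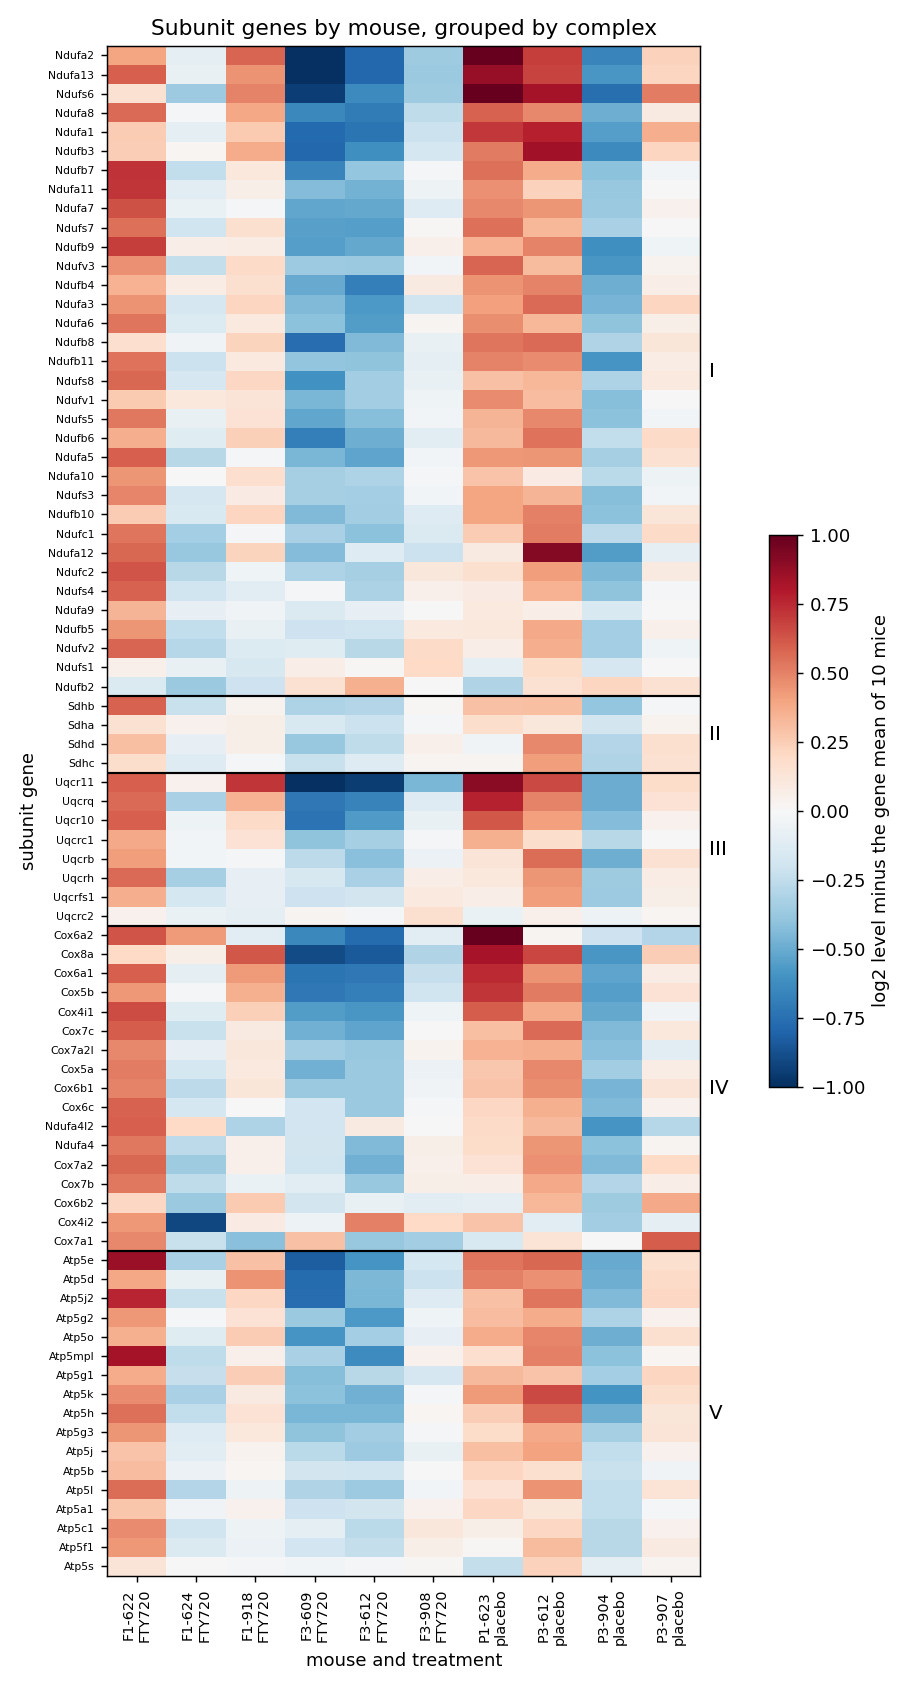
Log2 level of the subunit genes that passed the filter (81, of which 1 is not shown), as the difference from the mean of the gene over the 10 mice (red above, blue below, colours saturating at 1 and -1), with the mice in columns and the genes in rows by complex. Most rows share a pattern: F1-622, P3-612 and P1-623 above, and F3-609, F3-612 and P3-904 below.

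FTY720 was compared with placebo to describe the effect of the drug on the brain of HO mice. The subunit genes were on balance somewhat lower in FTY720 mice, by less than the spread between mice of the same group. The log2 fold change of FTY720 over placebo had a median of -0.18 over the 81 genes, against 0.00 over 14784 protein-coding genes, and lay below 0 in 76 of the 81, against 48.9% of all protein-coding genes. The medians were -0.20 in complex I, -0.11 in complex II, -0.14 in complex III, -0.17 in complex IV and -0.18 in complex V. By the criterion of an unadjusted p under 0.05, 1 of 81 genes was lower and 0 were higher, with 2.61% of protein-coding genes past it in either direction and 1.47% lower, and nothing is read from this count. No gene tested passed an adjusted p of 0.05 with edgeR, DESeq2 or limma. The ranges of the groups overlapped for every subunit gene, while 0.839% of protein-coding genes had ranges that did not overlap. Fewer cells of a type and less RNA per cell cannot be told apart in these bulk libraries.

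The gene past the criterion was Ndufs6, a zinc-binding subunit of complex I on chromosome 13 (chr13:73319838-73328542, minus strand, GRCm38). Its level ran from 13.1 CPM over a median of 19.6 to 35.7 in the 6 FTY720 mice, and was 52.1, 45.1, 36.1 and 15 CPM in the placebo mice P1-623, P3-612, P3-907 and P3-904. The placebo mouse P3-904 thus lay with the low FTY720 mice, while the other placebo mice lay above all FTY720 mice. The log2 fold change was -0.75 ± 0.33 (SE). Ndufs6 overlaps Mrpl36 on the other strand, and the strand setting of the counting is not given in the sources used here, so reads of the 2 genes may not be told apart. Ndufa1, an accessory subunit of complex I, ran from 14.9 over 23.1 to 30.8 CPM in FTY720 mice and was 42.1, 44.0, 33.0 and 17.5 CPM in the placebo mice in the same order, a log2 fold change of -0.57 ± 0.27. Ndufb8, another accessory subunit, had -0.39 ± 0.21. In complexes III, IV and V the genes with the largest differences were Uqcr11 (-0.44 ± 0.38), Cox8a (-0.47 ± 0.32) and Atp5k (-0.31 ± 0.24), each within 1.5 SE of 0. Some core subunits lay near 0, with log2 fold changes of 0.03 ± 0.10 for Ndufs1, 0.02 ± 0.09 for Uqcrc2, -0.06 ± 0.11 for Sdha, -0.03 ± 0.12 for Atp5a1 and -0.05 ± 0.13 for Atp5b. Other core subunits lay lower, among them Cox5b (-0.35 ± 0.27), Ndufs7 (-0.22 ± 0.23) and Cox5a (-0.19 ± 0.20).

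This comparison rests on single mice. Leaving out the placebo mouse P3-904 moved the median log2 fold change to -0.31 and the count past the criterion to 12 (14.8%, against 3.06% of protein-coding genes lower in the same fit). Leaving out the FTY720 mouse F1-622 moved them to -0.29 and 6 (7.41% against 1.66%), and leaving out F1-918 gave -0.20 and 3 (3.70% against 2.17%). Leaving out the placebo mouse P3-612 gave -0.06 with a count of 0, and the count was also 0 without F1-624, F3-609, F3-612, F3-908, P1-623 or P3-907. With the digit as a covariate, the median was -0.28 and 20 of 81 genes were lower at an unadjusted p under 0.05, where 8.45% of protein-coding genes were lower by the same criterion. In the 3 FTY720 and 3 placebo mice with digit 3, it was -0.34 with 18 of 81 lower, against 5% of protein-coding genes. The set was selected on this comparison, so nothing is read from these counts beside their backgrounds. None of these passed an adjusted p of 0.05 in either fit, and the smallest adjusted p among the subunit genes was 0.354 with the covariate (edgeR).

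The name digit was then compared, with treatment as a covariate, because it splits the mice by the presence of cerebellar transcripts. Subunit genes were on balance lower in the 6 digit 3 mice than in the 4 digit 1 mice. The log2 fold change of digit 3 over digit 1 had a median of -0.39 over the 82 genes tested, against -0.03 over 15175 protein-coding genes, and lay below 0 in 76, against 53.1% of all. At an adjusted p under 0.05, 21 of 82 were lower (25.6%) and 1 was higher, with 28.9% of protein-coding genes called in either direction, 15.6% lower and 13.2% higher. The count in both directions (26.8% of the 82) thus lay near the background, while its split was to the lower side. By complex, 10 of 35 complex I genes, 0 of 4 complex II genes, 4 of 8 complex III genes, 5 of 18 complex IV genes and 2 of 17 complex V genes were called lower. In these mice the digit also goes with other differences: the summed cerebellar markers were 248 to 317 CPM with digit 1 and 1045 to 1282 CPM with digit 3. Their part in the result was not tested.

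**Figure D4:**
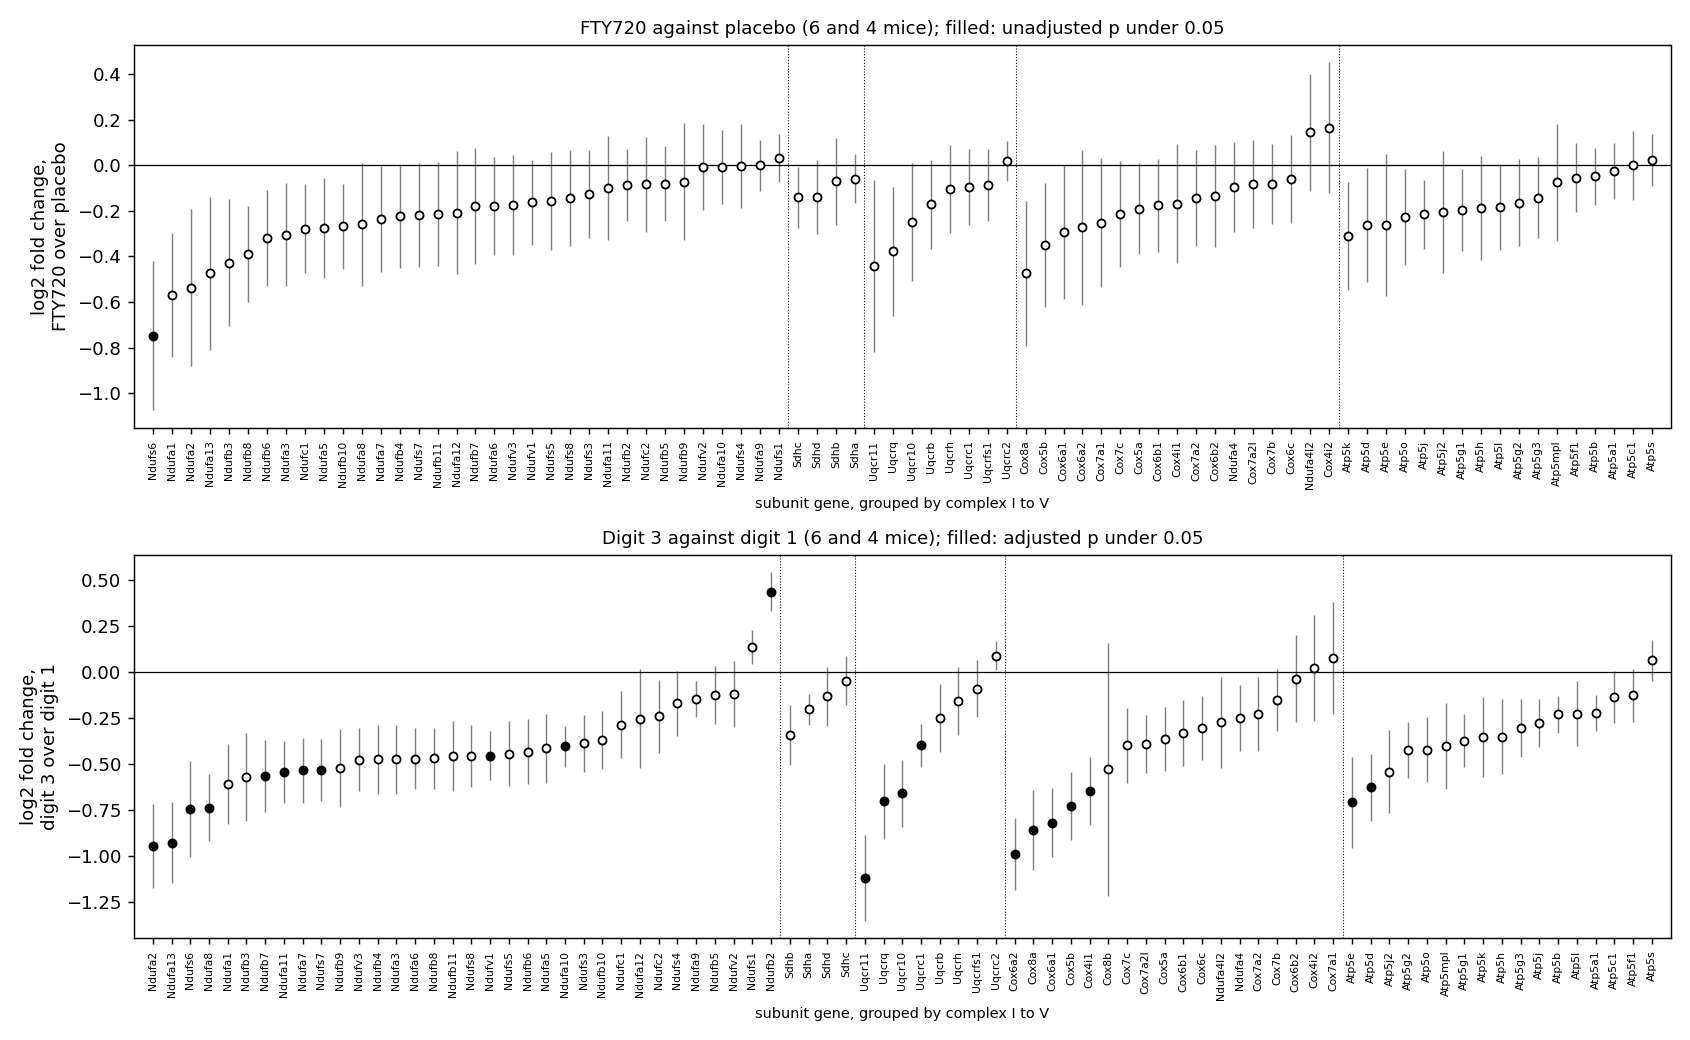
Log2 fold change of each subunit gene with its SE, ordered within complexes I to V, for FTY720 over placebo (above) and digit 3 over digit 1 (below), with 1 gene tested left out of both plots, where filled points have an unadjusted or an adjusted p under 0.05 respectively. The points lie mostly below 0 in both, with 1 filled point in the upper plot and 22 in the lower.

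In complex III, the small subunit Uqcr11 on chromosome 10 (chr10:80402997-80406830, minus strand, GRCm38) fell the most. It had 69.7, 47.5, 75.6 and 86.3 CPM in the digit 1 mice F1-622, F1-624, F1-918 and P1-623, and ran from 19.97 over a median of 33.2 to 73.1 CPM in the 6 digit 3 mice. The placebo mouse P3-612 gave the 73.1, and the other 5 digit 3 mice lay at or below 52.5 CPM. The log2 fold change was -1.12 ± 0.23 (SE, adjusted p = 0.00485, edgeR with Benjamini-Hochberg adjustment). The small subunits Uqcrq and Uqcr10 fell by 0.70 and 0.66 on the log2 scale, and Uqcrc1, a large core subunit, by 0.40. The other core proteins did not pass, with log2 fold changes of 0.09 ± 0.08 for Uqcrc2 and -0.09 ± 0.15 for Uqcrfs1, the Rieske iron-sulfur protein.

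In complex IV, Cox6a2, the scarce heart and muscle form, fell by 0.99 on the log2 scale (SE 0.20, adjusted p = 0.00382, edgeR), from 6.45, 5.60, 3.84 and 8.78 CPM in the digit 1 mice to between 2.38 and 4.22 CPM in the digit 3 mice. Its abundant partner Cox6a1, whose promoter is shown above, had 380, 236, 337 and 422 CPM in the digit 1 mice and ran from 151 over 194 to 342 CPM in the digit 3 mice. It fell by 0.82 (SE 0.19, adjusted p = 0.00751, edgeR), and P3-612 was again the highest digit 3 mouse. Cox8a fell by 0.86, Cox5b, a zinc-binding subunit, by 0.73 and Cox4i1 by 0.65. The genes Cox7a2, Cox7b and Ndufa4 had log2 fold changes of -0.23 ± 0.20, -0.16 ± 0.17 and -0.25 ± 0.18 and did not pass. Cox6a2 shares its locus with Itgad on the other strand, and Cox4i1 with Emc8 on the other strand and Gm20388 on the same strand.

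In complex I, the accessory subunits Ndufa2, Ndufa13 and Ndufa8 fell by 0.95, 0.93 and 0.74 on the log2 scale, with adjusted p of 0.00997, 0.00967 and 0.0114 (edgeR). Ndufa13, also known as Grim19, had 96.6, 60.5, 87.3 and 117 CPM in the digit 1 mice and ran from 32.0 over 46.0 to 102 CPM in the digit 3 mice, so the ranges overlapped. The placebo mice P3-612 and P3-907, at 102 and 74.1 CPM, were the digit 3 mice above the lowest digit 1 mouse. Ndufa13 overlaps Yjefn3 on the same strand and Tssk6 on the other, and Ndufa2 overlaps Tmco6 on the other strand. Ndufs6 fell by 0.74 (adjusted p = 0.0487, edgeR), close to the threshold. Of the core subunits that carry the flavin and iron-sulfur clusters, Ndufs7 fell by 0.53 and Ndufv1 by 0.46, while Ndufs8 and Ndufs1 had -0.46 ± 0.17 and 0.13 ± 0.09 and did not pass. The other genes called lower, named after their values were seen, were Ndufa7, Ndufa10, Ndufa11 and Ndufb7. Ndufb2 was the subunit gene that rose, from 19.1, 16.4, 18.3 and 17.2 CPM in the digit 1 mice to between 21.1 and 27.2 CPM in the digit 3 mice, a log2 fold change of 0.43 ± 0.11 (adjusted p = 0.0105, edgeR). It was also the one subunit gene whose digit ranges did not overlap, against 14.7% of protein-coding genes. Ndufb2 stood at 3.77 FPKM, the lowest FPKM in complex I, at a gene length of 5628 bases in the count table. It overlaps Braf and Gm16272 on the other strand and Gm42420 on the same strand.

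In complex V, Atp5d and Atp5e of the central stalk fell by 0.63 and 0.71 on the log2 scale. Atp5e had 161, 70.3, 108 and 128 CPM in the digit 1 mice and ran from 49.8 over 70.1 to 132 CPM in the digit 3 mice. The catalytic subunits had smaller differences that did not pass, -0.22 ± 0.10 for Atp5a1 and -0.23 ± 0.10 for Atp5b, as did the c-ring genes Atp5g1, Atp5g2 and Atp5g3 with -0.37 ± 0.14, -0.42 ± 0.15 and -0.30 ± 0.16. In complex II, Sdha, Sdhb, Sdhc and Sdhd had -0.20 ± 0.09, -0.34 ± 0.16, -0.05 ± 0.13 and -0.13 ± 0.16, and 0 of the 4 passed with edgeR, with 1 of them at an unadjusted p under 0.05. Of the promoters matched, an NRF1 match stood in 5 of 18 genes called and in 12 of 50 not called.

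The count of lower genes also moved with single mice. It was 44 without the placebo mouse P3-612 (53.7%, against 19.3% of protein-coding genes lower in the same fit), 12 without F1-622 (14.6% against 13.7%) and 13 without F1-918 (15.9% against 10.9%). It was 8 (9.76%) without F3-609, without F3-612 or without P1-623, the placebo mouse with digit 1, where 8.61%, 10.5% and 8.52% of protein-coding genes were lower. The share of subunit genes thus lay near the background when F1-622, F3-609, F3-612 or P1-623 was left out. Without the treatment covariate 3 genes were lower (3.70%), below the 11.1% of protein-coding genes, with a median log2 fold change of -0.30. The genes Ndufa2, Ndufa8, Ndufa13, Uqcr11, Cox5b, Cox6a1, Cox6a2 and Cox8a kept their call whichever mouse was left out. Without the treatment covariate Ndufa2, Ndufa8, Ndufa13, Uqcr11, Cox5b and Cox8a lost it, and in FTY720 mice alone Cox6a2 did, so that of the 18 called genes recomputed under every alternative, 1, Cox6a1, kept its call in all of them. Ndufb2 lost its call without P1-623. For the interaction of treatment with the digit, 0 of 83 subunit genes had an unadjusted p under 0.05 (edgeR), where 1.82% of protein-coding genes did. This count is a description too, and its fit leans on the single placebo mouse with digit 1.

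The subunit genes are short, and gene length moved with the mice. Their median length in the count table was 1569 bases, against 4408 bases over the protein-coding genes tested, while their median GC content of 50.3% lay near the 49.9% of all. In the mice where the subunit genes stood high, levels fell with gene length. Other protein-coding genes longer than 2490 bases moved little, with median deviations from the mean of the 10 mice of -0.03, -0.04 and -0.04 in F1-622, P3-612 and P1-623. The log2 level of protein-coding genes changed per doubling of length by -0.17 in F1-622, -0.15 in P3-612 and -0.15 in P1-623, where the subunit genes had median deviations of 0.48, 0.42 and 0.30. It changed by 0.17 in P3-904, 0.17 in F3-609 and 0.15 in F3-612, where the deviations were -0.41, -0.40 and -0.38. The other 4 mice had slopes between -0.05 and 0.04 and deviations between -0.14 and 0.10. Other protein-coding genes of 963 to 2490 bases, the middle of the subunit lengths, had deviations of 0.28, 0.24 and 0.24 in the high mice and -0.24, -0.27 and -0.23 in the low mice, so they moved the same way by smaller amounts.

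Among the subunit genes, too, the shorter ones differed more. The genes under 1000 bases had median log2 fold changes of -0.26 for FTY720 (21 genes tested) and -0.49 for the digit (22 genes), and the 20 genes over 2500 bases had -0.08 and -0.23. Across the 81 genes, log2 length and log2 fold change had a Pearson r of 0.44 for FTY720 and 0.43 for the digit, a description over genes that share the same 10 libraries. Once a smooth trend on gene length was removed from each library, the FTY720 median went from -0.18 to -0.08, with 61 of 81 genes below 0 (44.5% of all protein-coding genes), and with trends on length and GC content removed it was -0.09. The 2633 other genes of similar length went from -0.10 to 0.00.

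For the digit, the median with the length trend removed was -0.33, from -0.39 before, while that of all protein-coding genes went from -0.03 to -0.11, and 32 of 82 subunit genes were called lower (39.0%), where 33.5% of protein-coding genes were called in either direction and 23.0% lower. All 21 genes called lower before were among the 32. The removal was partial for the digit: over 20 bins of the other protein-coding genes by length, the median log2 fold change still ran from -0.33 in the shortest bin to -0.03 in the longest, from -0.41 to 0.28 before. The 2633 other genes of similar length had medians of -0.26 before and -0.22 after, and 24.9% and 27.5% of them were called lower. With the trends on length and GC content removed, 28 subunit genes were called lower, 15 of them from the original 21, and 0 higher, where 18.4% of protein-coding genes were called lower. That correction ended the calls of Ndufa11, Ndufs7, Ndufv1, Cox4i1 and Atp5d, whose log2 fold changes became -0.25, -0.23, -0.27, -0.38 and -0.34, and that of Ndufb2, which became 0.20. Ndufb7 also lost its call, with a log2 fold change that moved little, from -0.57 to -0.50 (adjusted p = 0.0790, edgeR). The median of all protein-coding genes was -0.10 with both trends removed.

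**Figure D5:**
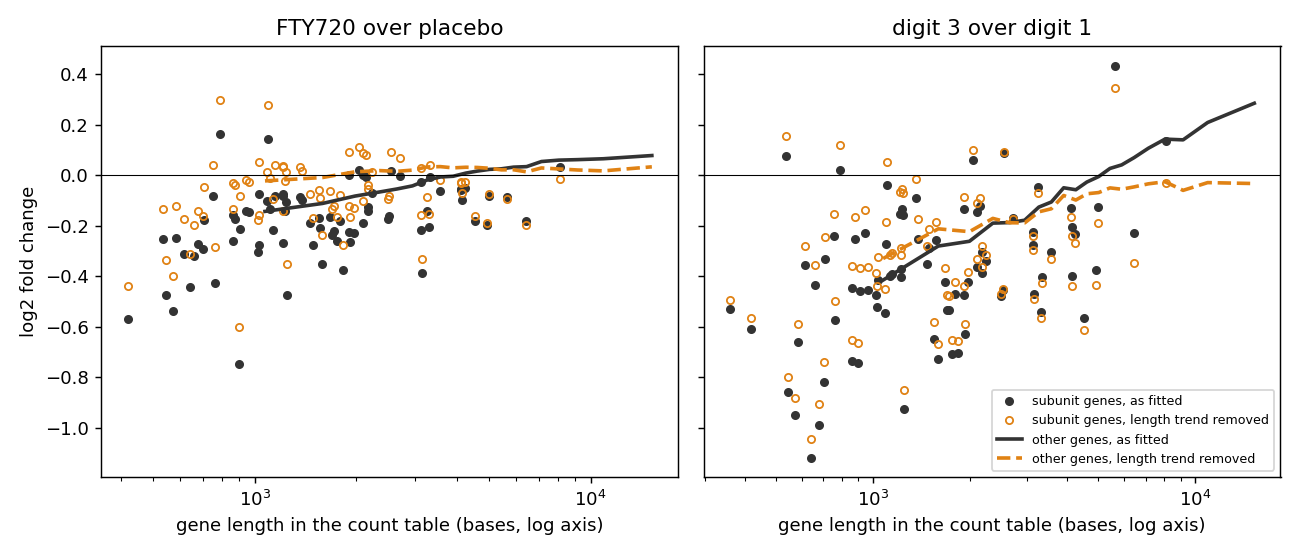
Log2 fold change against gene length in the count table (bases, log axis) for FTY720 over placebo (left) and digit 3 over digit 1 (right), for subunit genes as points (1 not shown) and other protein-coding genes as medians of 20 length bins, as fitted (dark) and with the length trend removed (orange). When the trend is removed, the median of the subunit genes moves from -0.18 to -0.08 for FTY720 and from -0.39 to -0.33 for the digit.

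The 13 subunits encoded by mitochondrial DNA had median differences near 0 in the fits without a correction for length and GC content. They summed to 44013 to 45911 CPM in placebo and 40366 to 54290 CPM in FTY720 mice, and the highest sum belonged to F3-609, which was among the lowest mice for the nuclear genes. Their median log2 fold change was 0.03 for FTY720 and 0.05 for the digit, and 1 of 13, mt-Atp8, was called lower in digit 3 mice (-0.80 ± 0.27). With the trends on length and GC content removed, the digit median of these 13 genes was -0.28, with 13 of 13 below 0 (62.1% of protein-coding genes) and 6 called lower (18.4% of protein-coding genes). Other mitochondrial groups were compared in the fits without this removal, where 15.6% of protein-coding genes were called lower and 13.2% higher by the digit. Of 46 assembly factors, which build the complexes without joining them, 7 were lower and 1 was higher by the digit, 17.4% in both directions against 28.9% of protein-coding genes, among them Ndufaf8 (-0.88 ± 0.19) and the copper chaperone Cox17 (0.72 ± 0.17). Of 77 mitochondrial ribosomal proteins 21 were lower, with a median of -0.32, and of 19 TCA cycle enzymes 2 (10.5%), Mdh2 and Idh2, were lower. Glycolysis lies outside the mitochondrion, and 11 of its 18 genes were lower, among them Hk1 (-0.43 ± 0.08) and Pfkl (-0.77 ± 0.15). Cytosolic ribosomal proteins, which are short genes as well with a median of 1705 bases, were lower in 53 of 84 with a median of -0.60. Of 13 regulators of mitochondrial biogenesis, 4 were higher and 0 lower by edgeR, with 0 lower at an unadjusted p under 0.05, and Esrrg, a nuclear receptor, rose by 0.97 ± 0.11 and Gabpa, an ETS factor known to drive subunit genes, by 0.51 ± 0.11. With the length trend removed, 3 of these regulators were higher and 2 lower, and with both trends removed 2 were higher and 0 lower, with 2 lower at an unadjusted p under 0.05. Their median went from 0.23 to 0.08 and 0.01. Gabpa lies across from the complex V gene Atp5j. For FTY720 against placebo, 0 genes of any of these 7 lists had an unadjusted p under 0.05 with edgeR, and the list medians ran from -0.13 to 0.04. With the digit as a covariate, 20 of 82 cytosolic ribosomal proteins (median -0.28), 17 of 77 mitochondrial ribosomal proteins (median -0.19) and 6 of 45 assembly factors (median -0.07) were lower at an unadjusted p under 0.05, beside the 20 of 81 subunit genes and 8.45% of protein-coding genes. Of 18 glycolysis genes, 2 were lower in that fit (median -0.18). So were 1 of 19 TCA cycle enzymes (median -0.02) and 1 of 13 mitochondrially encoded subunits (median 0.05). The regulators of biogenesis had 3 of 13 higher and 1 lower in that fit, and 5.64% of protein-coding genes were higher.

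Markers of cell types were set beside these values. For the digit, 6 of 6 cerebellar granule and Purkinje cell markers were higher in digit 3 mice, while 4 of 6 markers of cortex and hippocampus and 5 of 6 microglia markers were lower, beside 13.2% of protein-coding genes called higher and 15.6% lower. The summed microglia markers were 325 to 391 CPM with digit 1 and 227 to 309 with digit 3, and the cortical markers 370 to 423 and 274 to 337. Of 6 markers each, 1 neuron marker, 2 pericyte markers and 1 choroid plexus marker were lower, 1 astrocyte marker was lower and 1 higher, 1 endothelial marker was higher, and 0 oligodendrocyte markers and 0 of 5 blood markers were called, of which 1 each had an unadjusted p under 0.05 (edgeR). With the length trend removed 4 neuron markers were lower, and with both trends removed 2 were. The summed neuron markers ran from 4893 to 5472 CPM over all mice. For FTY720, 3 of 6 oligodendrocyte markers were lower and 3 of 6 endothelial markers and 1 of 6 pericyte markers were higher at an unadjusted p under 0.05, beside 1.47% of protein-coding genes lower and 1.14% higher. The part of these cells in the values of the subunit genes was not tested.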

How the data were processed

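Brain total RNA (TRIzol, NEBNext Ultra RNA kit) was sequenced by the submitters. Their processing notes name CASAVA 1.8, fastp, HISAT2 2.0.5 (GRCm38/mm10), featureCounts 1.5.0-p3 and DESeq2 1.20.0, and the study describes in-house filtering of reads. The strand setting and annotation release are not given in the sources used here. The authors deposited raw counts per gene and FPKM values, which are those counts divided by gene length and a library size. That size differed from the count total, with 14209828 against 14772745 in F1-622 and 18763331 against 18303981 in P3-907. The counts give 14772745 to 18303981 reads per mouse, and low genes are limited by counting error. Samples were grouped by the treatment label, each library being a separate mouse.

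The members and gene lists were chosen with earlier results of these data known. Genes passing filterByExpr (17665 for FTY720, 18785 for the digit and 19954 for the interaction) were fitted in R 4.3.3 with edgeR 4.0.16 (TMM scaling, quasi-likelihood test, two-sided), without covariates for FTY720 and with treatment as covariate for the digit. Adjusted p-values are Benjamini-Hochberg over all genes tested, and the SE is the log2 fold change over the square root of F. Backgrounds count protein-coding genes. FTY720 calls use an unadjusted p under 0.05, as the study did, and digit calls an adjusted p under 0.05. Log2 levels used a prior count of 2. Trends on log2 length and GC content (natural splines, 5 degrees of freedom, longest transcript of the annotation for GC) were removed as offsets. Named genes were those with the smallest p per complex (3 for FTY720, 4 for the digit), core subunits, paired isoforms, Slc20a2 and up to 2 genes per other list and comparison. The list of cytosolic ribosomal proteins was corrected after the data were seen, to leave out the Rps6k kinases. Alternatives were DESeq2 1.42.0, limma 3.58.1 on log2(FPKM + 0.1) and log2(FPKM + 1), other scalings and filters, covariates, and leaving out each mouse. Scripts were tested on simulated data. Of the members, 37 overlap another gene and 8 pseudogene rows carry a member's name, so reads may be shared. The values of 1 member are not reported here by name, but it is included in all counts and medians.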

Additional observations from a re-analysis of the deposited data

Results flagged for a closer look

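Of 106 groups of values examined for a mouse that stands apart from the others of its group by Dixon's criterion, 4 met it, and chance alone would meet it in about 1 of 20 groups. Ndufb2 had 17.2 CPM in the placebo mouse P1-623, against 23.5 to 24.6 CPM in the other 3 placebo mice, and P1-623 is the one placebo mouse with digit 1. Cox6a2 had 8.78 CPM in the same mouse, against 3.36 to 4.22 CPM in the others. Sdhb had 197 CPM in the FTY720 mouse F1-622, against 106 to 135 CPM in the other 5 FTY720 mice. Cox8b had 1.06 CPM in F1-622, against 0.116 to 0.358 CPM, at no more than 18 counts in any mouse.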

How the results depend on the processing

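No paired analysis was possible because the groups share 1 mouse number and the labels tie no mice together. The count of subunit genes lower under FTY720 (1 in the fit reported) was 2 with DESeq2 (2.47%, against 1.54% of protein-coding genes), with upper-quartile scaling (2.47% against 1.62%) and without the filter on low counts (2.41% against 1.34%), 0 with limma on log2(FPKM + 0.1) or log2(FPKM + 1) and with the leading digit of the mouse number as covariate, 20 with the name digit as covariate (24.7% against 8.45%), 18 in digit 3 mice alone (22.2% against 5%), and 0 to 12 when 1 mouse was left out. For the digit, the 21 lower genes (25.6%, against 15.6% of protein-coding genes) became 50 without the filter (60.2% against 14.5%), 32 with the length trend removed (39.0% against 23.0%), 3 without the treatment covariate (3.70% against 11.1%), and 8 to 44 when 1 mouse was left out. With limma on log2(FPKM + 0.1) or log2(FPKM + 1) 15 were lower (18.3%, against 14.6% and 14.8%). With the leading digit of the mouse number as covariate 15 were lower too (18.3% against 13.1%). DESeq2 gave 27 (32.9% against 17.7%) and FTY720 mice alone 21 (25.9% against 10.3%). The 1 higher gene became 0 with the length and GC trends removed and in FTY720 mice alone, and 0 to 1 when 1 mouse was left out. The cause of these changes was not tested. The medians kept their sign throughout, from -0.06 to -0.34 for FTY720 and from -0.23 to -0.46 for the digit. Over the genes named and all settings, 16 values for FTY720 and 149 for the digit lost their side of the threshold and 105 and 76 gained it, with the same direction. A further 115 values for FTY720 and 41 for the digit changed sign while past the threshold in neither fit, among them those of Sdhb and Uqcrfs1 for FTY720 with the length trend removed (0.01 and 0.03) and of Gabra6 and Zic1 with the name digit as covariate (0.12 and 0.04). Past the threshold, 2 genes changed direction for FTY720: Cbln3 had a log2 fold change of 0.28 in digit 3 mice alone, and Hba-a1 ran from -0.49 to 2.04 when 1 mouse was left out, the upper value without the placebo mouse P3-612. Depth limits the scarce isoforms Cox7b2, Cox8b and Cox8c.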
